A study of Mus musculus with 48 samples.

Results

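Dietary sugar is split at the brush border, carried into the enterocyte and passed on to the blood or metabolised, and 9 genes of this route were followed in mice 9 days after Roux-en-Y gastric bypass (RYGB) or sham surgery. They were Sis, Mgam, Lct and Treh (sugar hydrolases), Slc5a1, Slc5a4b, Slc2a2 and Slc2a5 (sugar transporters and their relative) and Khk (ketohexokinase). They were taken by gene symbol out of 15541 genes listed in at least 1 of 6 tissue tables. All 9 were listed in the villi of the duodenum, jejunum and ileum, 6 were listed in liver (not Sis, Lct or Slc5a4b), and 1, Khk, was listed in subcutaneous white adipose tissue (WAT) and in skeletal muscle.

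RYGB leads food from a gastric pouch straight into the jejunum, so the duodenum and most of the stomach are bypassed. The sham mice kept the normal route of food. Every mouse in both groups was a male C57Bl6 mouse with diet-induced obesity from a high fat diet, was given a liquid elemental diet after surgery and was fasted before it was killed in the morning. No age and no allele was given in the labels, and the labels do not say from which surgical limb the jejunum came. Messenger RNA was sequenced in 48 libraries. Duodenum and jejunum had 3 RYGB and 4 sham libraries each, ileum had 5 and 5, and liver, WAT and muscle had 4 and 4 each. Values are CPM, the reads of a gene relative to all counted reads of its library, scaled to the same total in each library. They summed to between 925122 and 998777 CPM per library over the listed genes.

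Sucrase-isomaltase (Sis) and maltase-glucoamylase (Mgam) release glucose and fructose from sucrose and starch fragments. Lactase (Lct) splits milk sugar, and trehalase (Treh) splits trehalose. Glucose and galactose then enter with sodium through SGLT1 (Slc5a1), fructose enters through GLUT5 (Slc2a5), and GLUT2 (Slc2a2) carries sugars across the basolateral side. Slc5a4b is a close relative of Slc5a1 in the same sodium-coupled family. Ketohexokinase (Khk) phosphorylates fructose inside the cell. Several of these genes are classical markers of the mature enterocyte, and lactase is known for its peak along the middle of the small intestine.

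The promoters of 5 genes are shown as a description, and their part in the results below was not tested. Lct, Treh and Slc5a4b were lower in the jejunum after RYGB, whereas Sis and Slc5a1 belong to the same route and were not. Each line holds the 250 bases before the annotated start site in RefSeq (GRCm38.p6), written 5′ to 3′ along the gene. The windows are chr1:128328319-128328568 on the minus strand for Lct, chr9:44672983-44673232 on the plus strand for Treh, chr10:76111019-76111268 on the minus strand for Slc5a4b, chr3:72967864-72968113 on the minus strand for Sis and chr5:33103969-33104218 on the plus strand for Slc5a1. Capitals mark matches to 3 short motifs searched on both strands.
Lct: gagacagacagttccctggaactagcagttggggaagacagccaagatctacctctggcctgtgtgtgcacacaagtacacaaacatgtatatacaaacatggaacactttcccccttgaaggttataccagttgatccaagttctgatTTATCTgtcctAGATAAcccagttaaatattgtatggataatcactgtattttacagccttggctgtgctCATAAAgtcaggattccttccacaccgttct
Treh: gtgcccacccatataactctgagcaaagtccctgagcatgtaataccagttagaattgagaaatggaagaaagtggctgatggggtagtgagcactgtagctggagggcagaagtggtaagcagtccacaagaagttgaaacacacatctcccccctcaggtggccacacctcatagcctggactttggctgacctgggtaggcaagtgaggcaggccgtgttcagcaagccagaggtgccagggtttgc
Slc5a4b: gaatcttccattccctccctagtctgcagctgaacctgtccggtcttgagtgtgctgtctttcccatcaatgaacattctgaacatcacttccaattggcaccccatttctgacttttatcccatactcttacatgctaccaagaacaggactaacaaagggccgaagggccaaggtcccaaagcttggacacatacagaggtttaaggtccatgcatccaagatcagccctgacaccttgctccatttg
Sis: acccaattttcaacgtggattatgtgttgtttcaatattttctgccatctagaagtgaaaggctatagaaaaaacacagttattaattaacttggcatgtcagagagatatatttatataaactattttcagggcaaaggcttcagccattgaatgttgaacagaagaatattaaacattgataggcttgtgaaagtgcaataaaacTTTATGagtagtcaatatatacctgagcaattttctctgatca
Slc5a1: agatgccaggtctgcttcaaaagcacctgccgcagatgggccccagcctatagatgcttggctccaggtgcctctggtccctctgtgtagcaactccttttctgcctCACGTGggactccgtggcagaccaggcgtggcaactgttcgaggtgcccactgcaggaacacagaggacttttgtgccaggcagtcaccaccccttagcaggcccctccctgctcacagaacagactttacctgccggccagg

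The motifs were those of CDX (letters TTTATG), the GATA family (letters AGATAA) and the E box (letters CACGTG, which also occur in the carbohydrate response element). No match overlapped another. Lct held a CDX match that begins 31 bases before the start site and GATA matches that begin 101 and 90 bases before it. Sis held a CDX match at 43 bases before the start. Slc5a1 held an E box at 143 bases, and Treh and Slc5a4b held no match in this window. All 9 genes had a RefSeq promoter. Of these, 2 held the CDX letters, against 10.8% of 32851 mouse promoters of this length. The GATA letters were in 2 of 9 (9.99% of all promoters) and the E box in 3 of 9 (6.02%). A match is a description of the letters and not a measured binding site.

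The labelled tissues were checked before the genes were compared. The epithelial markers Vil1 and Epcam were high in all 3 segments, with Vil1 between 2011 and 5270 CPM over the 24 intestinal libraries. Of the markers of the ileum, Fabp6 (the ileal bile acid binding protein) was at 0 in 2 of 5 sham ileum libraries and reached at most 50.5 CPM. Slc10a2, the ileal bile acid transporter, was at 0.2 to 2.5 CPM in sham and 1.6 to 53.7 CPM in RYGB. Fgf15, also a marker of the ileum, was at 0.8 to 31.4 CPM in sham ileum. Gata4, a factor of the proximal small intestine, stood at 105 to 183 CPM in all ileum libraries and at 122.0 to 181.2 CPM in sham jejunum. Other markers fixed for the segments stood differently. Cubn, the receptor cubilin that was fixed as a distal marker, was at 806.4 to 1687 CPM in sham ileum against 342.2 to 893.3 CPM in sham jejunum. Slc51b, a distal bile acid transporter gene, was at 72.5 to 143.3 CPM in sham ileum and 76.9 to 126.5 CPM in sham jejunum. Of the proximal markers, Onecut2 was at 6.2 to 26.9 CPM in sham ileum and 44.5 to 138.0 CPM in sham jejunum. Fabp1 was at 1190.0 to 3985.8 CPM in sham ileum and 3609.1 to 14000.0 CPM in sham jejunum. Slc40a1 was at 1.4 to 4.4 CPM in sham ileum and 1.6 to 21.1 CPM in sham jejunum, so these 2 segments overlapped. Tmprss15 was not listed in the ileum and was at 9.9 to 278.5 CPM in sham jejunum. The bile acid genes Fabp6 and Slc10a2 were thus low in the villi labelled ileum, while Cubn was high and Onecut2 low.

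The duodenal libraries differed among themselves. Slc40a1, the iron exporter of the duodenum, read 2468, 577.7, 855.9 and 26.9 CPM in sham replicates 1 to 4 and 25.2, 349.7 and 409.2 CPM in RYGB replicates 1 to 3. Pdx1, a factor of the proximal duodenum, read 159.9, 65.8, 47.3 and 14.5 CPM in the sham libraries and 16.9, 50.2 and 75.0 CPM in the RYGB libraries. Sham replicate 1 was the highest of 7 for both and sham replicate 4 was among the lowest 2 of 7 for both. The part of this spread in the results was not tested. Pancreatic acinar and gastric markers (6 each) were not listed in any of the 3 intestinal tables.

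**Figure D1:**
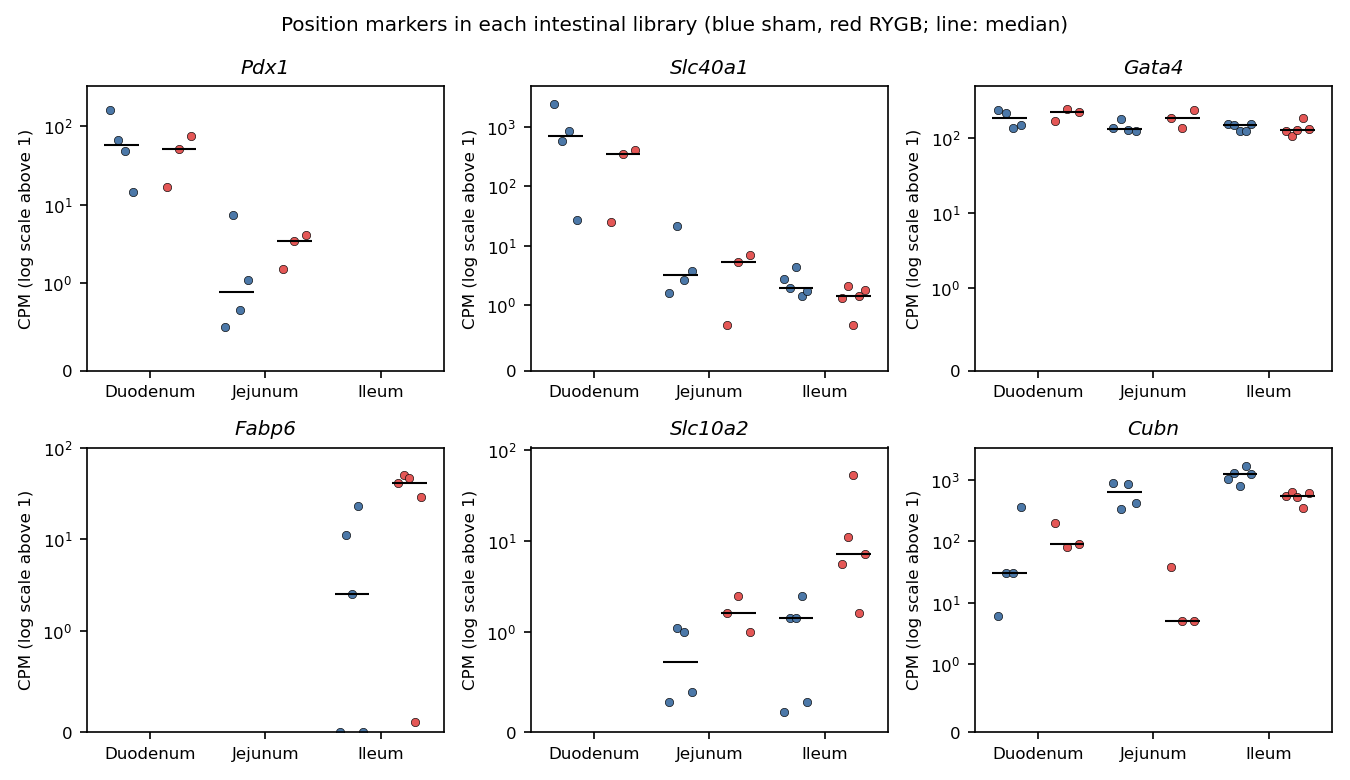
Position markers by library. The vertical axis is CPM (log scale above 1), each point is a library (blue sham, red RYGB), and the line is the group median. Slc40a1 in the duodenum ran from 25.2 to 2468 CPM, Cubn fell to 5.0 to 37.8 CPM in the RYGB jejunum, and a gene that was not listed in a segment has no points there.

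The strongest pattern among the 9 genes was a lower level of lactase, trehalase and Slc5a4b in the jejunum after RYGB. There Sis, Mgam and Slc5a1 lay at or above the sham level but did not pass the test. Slc2a5, Slc2a2 and Khk of the jejunum had negative log2 fold changes (-0.66, -0.21 and -0.06) and did not pass either. In the jejunum 3 of 9 genes were called lower and 0 of 9 higher. A gene was called when limma on log2(CPM + 1) gave a Benjamini-Hochberg adjusted p under 0.05 over all genes of the tissue and the fold change was at least 1.5. Of all 10854 genes tested in the jejunum 9.75% were called, with 4.62% higher and 5.13% lower. The median log2 fold change of the 9 genes was -0.21, against -0.04 for all genes tested.

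Lct read 1448, 1499 and 1639.8 CPM in the RYGB jejunum and 5395, 3255, 5089.7 and 3436 CPM in the sham jejunum. Every RYGB library was below every sham library, and the RYGB libraries were close to each other. The means were 1529 ± 99.4 (SD, n = 3) and 4294 ± 1105 CPM (SD, n = 4). RYGB minus sham gave a log2 fold change of -1.45 (SE 0.23, 95% confidence interval -1.98 to -0.93, limma adjusted p = 0.0053). On this scale Lct was 2.74-fold lower.

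Treh read 737.5, 610.6 and 591.6 CPM after RYGB and 1178, 1035, 1155 and 1448 CPM after sham surgery. The groups did not overlap. Its log2 fold change was -0.89 (SE 0.18, limma adjusted p = 0.0156), a 1.86-fold lower level. Without RYGB replicate 2, Treh was at -0.85 with a limma adjusted p of 0.0752, so this call needed that library. RYGB replicate 2 was also the only jejunum library from another sequencing lane.

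Slc5a4b was the least abundant of the 9 genes in the jejunum. It read 64.3, 33.1 and 11.3 CPM after RYGB and 134.2, 108.0, 214.2 and 174.1 CPM after sham surgery. Again no RYGB library reached the lowest sham library. The log2 fold change was -2.35 (SE 0.47, limma adjusted p = 0.0145), a 5.09-fold lower level. Its neighbouring paralog Slc5a4a was also lower, at 15.5 to 48.9 CPM against 65.3 to 144.8 CPM (log2 fold change -1.80, limma adjusted p = 0.0228), a call lost in 3 of 7 fits that left out 1 library. How any reads that match both paralogs were counted is not given in the sources used here, so the split between the pair is uncertain.

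The values of Slc5a1 lay on the other side of the sham level. SGLT1 transcript read 6417, 7196 and 8002 CPM after RYGB and 4791, 4640.3, 4823 and 3959 CPM after sham surgery, without overlap. Its log2 fold change of 0.66 (SE 0.20) had a limma adjusted p of 0.0703 and was not called. With genes of at least 10 CPM alone the adjusted p was 0.0435. Mgam likewise did not overlap, with 6368, 8009 and 8809 CPM after RYGB and 5615, 4346, 5633.5 and 3704 CPM after sham surgery. Its log2 fold change was 0.69 (SE 0.24, limma adjusted p = 0.105). Altogether 5 of the 9 genes had groups without overlap in the jejunum, against 22.2% of all genes tested.

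The other 4 genes overlapped between the groups in the jejunum. Sis, the most abundant of the 9 genes there, read 15645, 16804 and 13443 CPM after RYGB and 12209, 11828, 14982 and 8583 CPM after sham surgery (log2 fold change 0.38, limma adjusted p = 0.418). Slc2a2 had a log2 fold change of -0.21 (adjusted p = 0.663) and Slc2a5 one of -0.66 (adjusted p = 0.375). The 95% confidence interval for Slc2a5 ran from -1.59 to 0.26, which leaves room for a sizeable decrease of GLUT5. Khk read 489.4 to 661.6 CPM after RYGB and 467.6 to 806.8 CPM after sham surgery, with a log2 fold change of -0.06 (interval -0.56 to 0.43). This value changed sign, to 0.0066, when libraries were scaled by their median ratio.

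**Figure D2:**
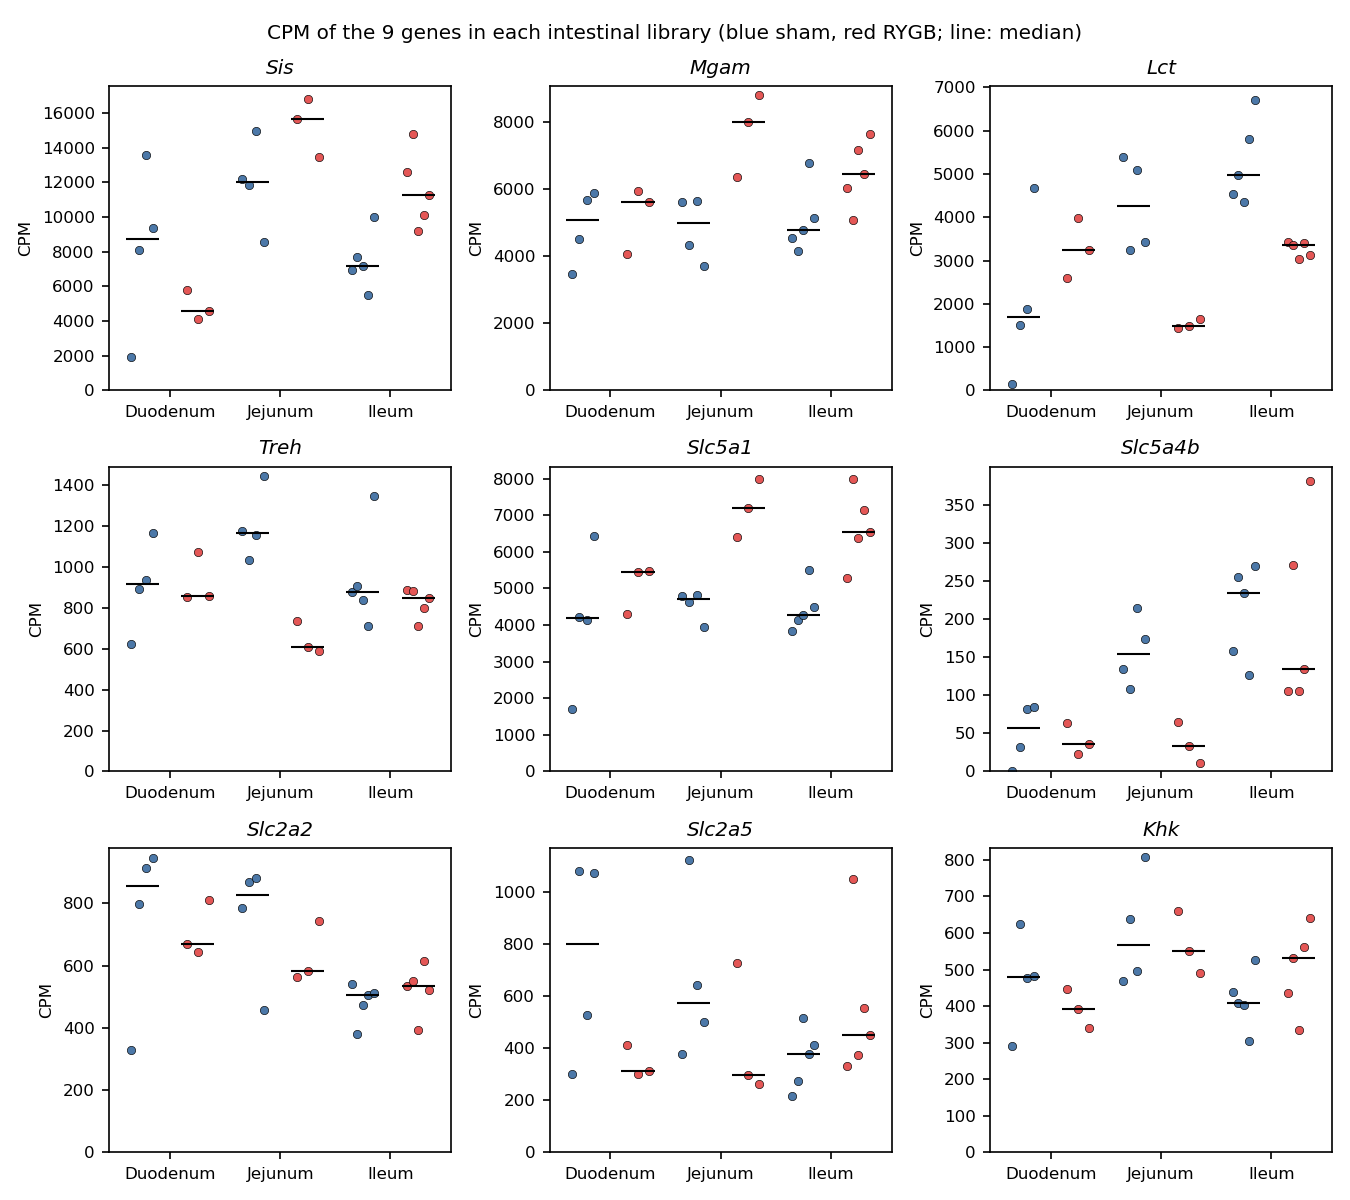
CPM of the 9 genes in each intestinal library. The vertical axis of each panel is CPM from 0, points are libraries (blue sham, red RYGB) and lines are medians. Lct, Treh and Slc5a4b of the jejunum lie lower after RYGB without overlap, with Lct at 1448 to 1639.8 CPM against 3255 to 5395 CPM, and Lct of the ileum lies lower as well.

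Other transcripts moved with these genes in the jejunum. Apoa4, an apolipoprotein of the absorptive enterocyte, was at 10108 to 23857 CPM after RYGB and 29793 to 57052 CPM after sham surgery (log2 fold change -1.47, limma adjusted p = 0.0337). Of 3 listed distal markers 1 was lower and 1 higher. Cubn was at 5.0 to 37.8 CPM against 342.2 to 893.3 CPM (log2 fold change -5.69, limma adjusted p = 0.001), and Slc51b was at 150.2 to 201.9 CPM against 76.9 to 126.5 CPM (log2 fold change 0.90, limma adjusted p = 0.0266). Slc10a2, at 1.0 to 2.5 against 0.3 to 1.1 CPM, was not called. Of 9 enterocyte markers 1 was called higher (Cdh1), 1 lower (Apoa4) and 7 not at all. Their summed level was 35066 to 68321 CPM after RYGB and 66663 to 107248 CPM after sham surgery, and Apoa4 was a large part of it. Within the list Vil1 (4151 to 4329 against 3120 to 4149.5 CPM), Krt20 (3242 to 5337 against 2482 to 3221 CPM) and Cdh1 lay higher after RYGB without overlap. Alpi (764.9 to 1641 against 1762 to 3039 CPM) and Apoa4 lay lower without overlap. Of 6 Paneth cell markers 5 were listed and 3 were higher (Lyz1, Mmp7 and Defa24), with the sum at 115.1 to 223.3 CPM against 33.3 to 68.5 CPM. Of 7 goblet cell markers 6 were listed and 1 was higher (Spink4), with sums of 4854 to 7826 against 4920 to 7192 CPM. Of 8 immune cell markers 7 were listed and 3 were lower (Ptprc, Cd3e and Cd8a), with sums of 24.9 to 67.0 against 57.2 to 1972 CPM. The upper end of the sham sum came from Cd74, which was not called and ran from 15.2 to 1923 CPM (median 55.7) in sham jejunum. Of 7 crypt and proliferation markers 4 were listed and 0 were called (sums of 25.7 to 57.1 against 21.9 to 34.0 CPM), and 1 of 8 stromal markers was listed and not called (1.4 to 4.3 against 0.2 to 4.3 CPM). Of the 5 listed proximal markers 0 were called. The part of these cells in the values of the 9 genes was not tested, and in such bulk samples fewer cells of a type and less RNA per cell cannot be told apart.

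To compare the 4 hydrolases with each other, CPM was divided by exon length in kb. The share of a gene within the summed level of Sis, Mgam, Lct and Treh does not depend on the scaling of a library. In the jejunum Lct made up 16.4% to 22.8% of this sum after sham surgery and 6.32% to 7.62% after RYGB. Treh made up 14.1% to 25.1% and 8.05% to 10.5%, respectively. Mgam went from 15.1% to 17.4% in sham libraries to 21.4% to 30.1% in RYGB libraries, and Sis from 40.8% to 51.2% in sham to 53.6% to 61.4% in RYGB. None of these 4 pairs of ranges overlapped. Shares sum to the whole, so a lower share of one enzyme raises the shares of the others. The ratio of Slc5a1 to Lct per kb was 1.39 to 2.23 in sham libraries and 6.92 to 7.62 in RYGB libraries of the jejunum.

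**Figure D3:**
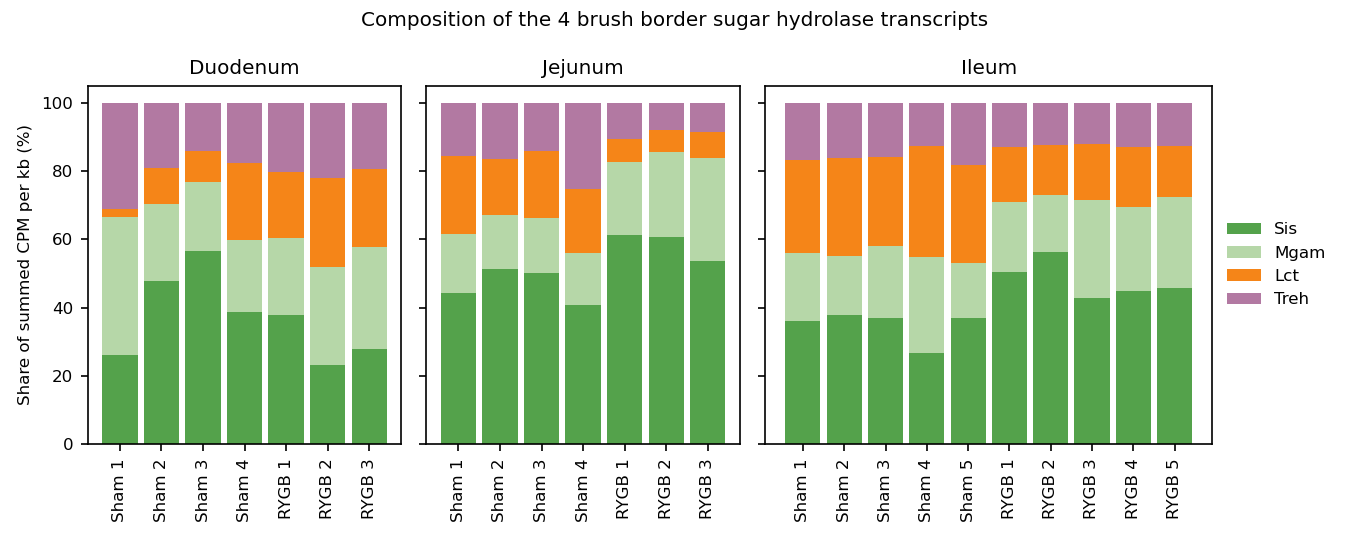
Composition of the 4 brush border hydrolase transcripts. Each bar is a library, the vertical axis is the share (%) of the summed CPM per kb of exon, and colours are genes. In the jejunum the orange Lct part was 16.4% to 22.8% in sham and 6.32% to 7.62% in RYGB libraries, and in the ileum it was 26.1% to 32.7% and 14.8% to 17.6%.

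In the ileum lactase was lower as well, and it was the only one of the 9 genes called there. Lct read 3423, 3349, 3032.5, 3406 and 3121 CPM after RYGB and 4542, 4983, 4358, 5808 and 6704 CPM after sham surgery. The groups did not overlap, and the spread was smaller among the RYGB libraries. The means were 3266 ± 178 (SD, n = 5) and 5279 ± 973 CPM (SD, n = 5). This gave a log2 fold change of -0.68 (SE 0.16, limma adjusted p = 0.0261), a 1.6-fold lower level. This call was lost, with adjusted p-values of 0.0587 and 0.0562, when RYGB replicate 2 or sham replicate 5 was left out, and with scaling by median ratio (log2 fold change -0.57, adjusted p = 0.0659). Of 10735 genes tested in the ileum 6.05% were called, 1.64% higher and 4.42% lower, and 9.34% had groups without overlap.

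The ileal RYGB libraries were all sequenced in another lane than the sham libraries, and for this segment the effects of lane and of surgery cannot be told apart. Slc5a1 of the ileum read 5295, 7989, 6368, 7152 and 6555 CPM after RYGB and 3836, 4124, 4267, 5494 and 4497 CPM after sham surgery. Only the lowest RYGB library and the highest sham library overlapped. The log2 fold change was 0.58 (SE 0.17) with a limma adjusted p of 0.0547, and without sham replicate 4 it was 0.66 with 0.0456. Sis read 12599.6, 14789.9, 9172, 10086 and 11253 CPM after RYGB and 6951, 7675, 7186, 5528 and 9992 CPM after sham surgery (log2 fold change 0.64, limma adjusted p = 0.0818).

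The remaining 6 genes of the ileum did not pass the test. Mgam had a log2 fold change of 0.36 (adjusted p = 0.239), Slc2a5 0.55 (adjusted p = 0.275), Khk 0.25 (adjusted p = 0.411), Slc2a2 0.11 (adjusted p = 0.637), Treh -0.15 (adjusted p = 0.576) and Slc5a4b -0.21 (adjusted p = 0.744). For Treh the 95% confidence interval was -0.50 to 0.19 in the ileum and -1.30 to -0.49 in the jejunum. The segments were normalised separately, so the difference between them was not tested. Slc5a4b ranged from 104.9 to 380.4 CPM after RYGB and from 126.8 to 270.1 CPM after sham surgery. The median log2 fold change of the 9 genes was 0.25, against -0.09 for all genes of the ileum. The Lct share of the hydrolase sum was 26.1% to 32.7% in sham and 14.8% to 17.6% in RYGB libraries, and that of Sis 26.7% to 37.7% and 42.8% to 56.3%. The shares of Mgam (16.2% to 28.0% and 16.6% to 28.7%) and Treh (12.5% to 18.1% and 12.1% to 13.0%) overlapped. The ratio of Slc5a1 to Lct per kb was 1.05 to 1.53 and 2.41 to 3.72.

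Beside these values in the ileum, 2 of 5 distal markers were called higher (Slc10a2 and Slc51b, both ileal bile acid transporter genes) and 1 lower (Cubn). Cubn was at 353.8 to 630.8 CPM after RYGB and 806.4 to 1687 CPM after sham surgery. The other distal markers, Fabp6 and Fgf15, were not called. Of the markers of other cells in the ileum, 3 of 7 listed immune markers were lower (Ptprc, Cd3e and Cd8a, sum 20.4 to 1432 against 73.8 to 2309 CPM), 1 of 6 goblet markers was higher (Spink4) and 0 of 5 Paneth and 0 of 4 crypt markers were called. The upper ends of the immune sums came from Cd74, which was not called and reached 1403 CPM in RYGB and 2237 CPM in sham ileum. The 1 listed adipocyte marker, Cidec, was called higher (113.6 to 305.0 against 74.3 to 110.7 CPM). Of 4 listed proximal markers Fabp1 was higher and Onecut2 lower. Of 9 enterocyte markers Fabp1 alone was called. Their part in the ileal values was not tested.

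In the duodenum 0 of 9 genes were called by limma, and 0 of 9 had an unadjusted p under 0.05. Only 1 of 10850 genes was called in this segment (0.00922%), with 2040 genes at an unadjusted p under 0.05 and 15.6% of genes without overlap between the groups. All 9 genes overlapped. The median log2 fold change of the 9 genes was 0.06 and that of all genes 0.12.

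Lct of the duodenum read 2586, 3971 and 3235 CPM after RYGB and 149.4, 1513, 1881 and 4681.5 CPM after sham surgery. The sham libraries spanned both ends of the range. The log2 fold change was 1.43 with a wide interval of -0.82 to 3.69 (limma adjusted p = 0.461). It was 0.44 without sham replicate 1 and 2.09 without sham replicate 4. The duodenal Lct share of the hydrolase sum overlapped, at 2.37% to 22.6% in sham and 19.5% to 26.1% in RYGB libraries. Sis read 5814, 4105 and 4552 CPM after RYGB and 1915.5, 8111, 13582 and 9347 CPM after sham surgery (log2 fold change -0.48, interval -1.91 to 0.94, and -1.08 without sham replicate 1). Slc2a5 read 411.9, 300.1 and 312.4 CPM after RYGB and 299.8, 1078, 525.2 and 1072.5 CPM after sham surgery. With a log2 fold change of -0.95 (SE 0.44, limma adjusted p = 0.284) it was the nearest of the 9 to the threshold.

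Sham replicate 1 was the lowest of the 7 duodenal libraries for 9 of 9 genes. Its Slc5a1 level was 1699 CPM, against 4139 to 6432 CPM in the other sham and 4303 to 5484 CPM in the RYGB libraries. Slc5a4b stood at 1.2 CPM in it and at 23.2 to 85 CPM in the others. Without this library the log2 fold change of Slc5a4b turned from 0.51 to -0.69 and that of Slc2a2 from 0.03 to -0.33, and 0 of 9 genes were called. None of the 9 enterocyte, 4 crypt, 5 Paneth, 6 goblet and 7 immune markers listed in the duodenum was called by limma, in a segment with 1 call in all. The median log2 fold changes of the crypt, Paneth and immune lists were 1.65, 1.25 and 1.33, against 0.12 for all genes. Positive log2 fold changes were found for 3 of 4 crypt, 5 of 5 Paneth and 6 of 7 immune markers. Among their members Mki67 (1.67), Top2a (1.64), Olfm4 (2.35), Itln1 (1.97), Defa24 (1.63) and Csf1r (1.70) had RYGB libraries above all sham libraries, with limma adjusted p-values of 0.142 to 0.17. For Csf1r this was 3.5 to 9.6 against 0.4 to 3.4 CPM. The crypt marker Pcna was at 13.2 to 17.2 CPM after RYGB and 14.3 to 23.4 CPM after sham surgery. The immune marker Cd74 was at 24.2 to 47.9 against 11.1 to 804.2 CPM. The part of all these markers in the duodenal values was not tested. Without sham replicate 4 also 0 of 9 were called, although the count over all genes rose from 1 to 757. The remaining values were 0.44 for Slc5a1 (0.06 without sham replicate 1), 0.06 for Treh, 0.11 for Mgam and -0.21 for Khk. Scaling by median ratio turned Treh to -0.065, Mgam to -0.022 and Slc2a2 to -0.10.

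**Figure D4:**
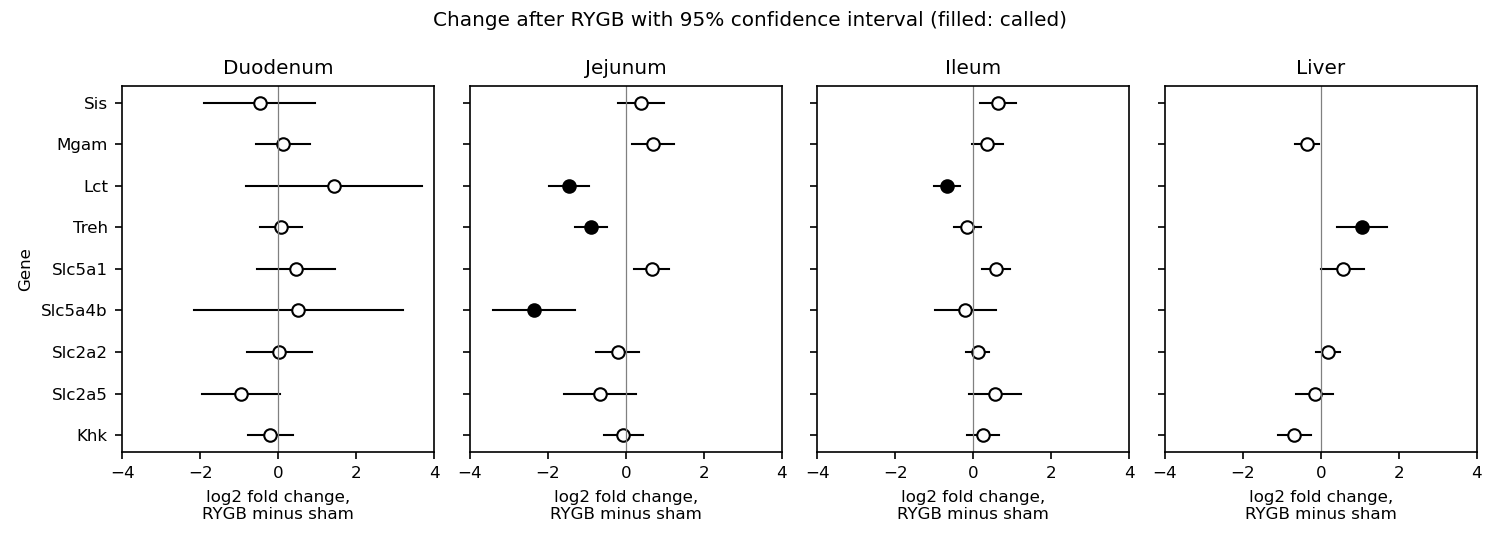
Change of the 9 genes after RYGB in the 3 intestinal segments and the liver. The horizontal axis is the log2 fold change (RYGB minus sham) on log2(CPM + 1), bars are 95% confidence intervals, and filled points were called. Filled points stand at -1.45 (Lct), -0.89 (Treh) and -2.35 (Slc5a4b) in the jejunum, -0.68 (Lct) in the ileum and 1.06 (Treh) in the liver, and genes without a point were not listed.

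Along the sham intestine the genes had different levels. The tables were normalised separately, so these levels are set side by side without a test. Segments are named by their labels. As given above, the villi labelled ileum were low in Fabp6 and Slc10a2, and their Gata4 range overlapped that of the jejunum. They were also high in Cubn and low in Onecut2. Per kb of exon, sham Lct had means of 321 ± 297 (SD, n = 4) in the duodenum, 670.3 ± 172 (n = 4) in the jejunum and 824 ± 152 CPM per kb (n = 5) in the ileum, where the SDs of neighbouring segments overlapped. Sham Sis stood at 1104 ± 646, 1594 ± 351 and 1000.3 ± 217 CPM per kb, with the jejunum above the ileum by more than their SDs. Slc5a1 was nearly level at 1005 ± 471, 1109 ± 98.5 and 1083 ± 155 CPM per kb. Sham Slc5a4b stood at 15.7 ± 12.7, 49.2 ± 14.5 and 65.2 ± 19.7 CPM per kb, which made it the lowest of the 9 in every segment, and its jejunum lay above its duodenum by more than their SDs. Of the carriers for free sugars, Slc5a1 per kb was the highest in each segment, and Slc2a2 was at 130 ± 49.8, 130 ± 34.5 and 83.9 ± 10.7 CPM per kb. The jejunal Slc2a2 level lay above the ileal one by slightly more than their SDs. For the other 4 genes neighbouring segments overlapped within their SDs. Mgam stood at 561 ± 128, 554 ± 110 and 583 ± 116 CPM per kb, and Treh at 442 ± 108, 588 ± 85.1 and 458 ± 118 CPM per kb. Slc2a5 stood at 219 ± 116, 194 ± 95.8 and 106 ± 34.7 CPM per kb, and Khk at 261 ± 75.7, 335 ± 86.4 and 232 ± 44.2 CPM per kb.

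The genes most like each of the 9 were found by Pearson's r of log2(CPM + 1) over all 24 intestinal libraries among 6521 genes. These values describe libraries that differ in segment, surgery and position, and carry no test. Lct was most like Ano6 (r = 0.963), Creb3l2 (0.95) and Slc36a1 (0.937). Among the 3 genes most like Khk were Tkfc (0.842), which acts on fructose after it, and Trappc2l (0.808). Slc5a4b was most like Pepd (0.923), Tmem86a (0.912) and Gdpd2 (0.906). Slc5a1 was most like Scin (0.865), Kalrn (0.832) and Manba (0.79), and the gene most like Mgam was Slc5a1 (0.787), followed by Myo1d (0.783) and Spred2 (0.775). Among those most like Sis were Cyp4f14 (0.809) and Scin (0.722). Treh was most like Mfsd11 (0.847), Sec14l2 (0.846) and Tmem219 (0.842), Slc2a2 most like Lpgat1 (0.766), Gosr2 (0.74) and Mut (0.737), and Slc2a5 most like Slc20a1 (0.738), Mpzl1 (0.733) and Tkfc (0.717).

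After uptake, triokinase (Tkfc, listed under its older symbol Dak), which acts on fructose after Khk, did not pass the test in any segment. Tkfc had log2 fold changes of -0.45, -0.05 and 0.57 in duodenum, jejunum and ileum. Scaling by median ratio turned the jejunal value positive (0.020) and brought Tkfc of the ileum to 0.67 with a limma adjusted p of 0.0413. Of 11 reported genes of sugar breakdown in the jejunum 2 were higher and 0 lower, where 4.62% and 5.13% of all genes were. Hexokinase 2 (Hk2), which traps glucose in the cell, was at 139.4 to 690.2 CPM after RYGB and 6.4 to 14.0 CPM after sham surgery (log2 fold change 4.47, SE 0.51, limma adjusted p = 0.0012). Hexokinase 1 (Hk1) was at 8.6 to 9.0 CPM against 3.4 to 6.2 CPM (log2 fold change 0.83, limma adjusted p = 0.0435), a call that was lost in 6 of 7 fits without 1 library.

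Of 8 tested genes of glucose output and sugar sensing in the jejunum 3 were lower and 1 higher. Pck1, the enzyme that commits to glucose synthesis, was at 2.3 to 10.0 CPM after RYGB and 82.8 to 251.5 CPM after sham surgery (log2 fold change -4.48, SE 0.46, limma adjusted p = 0.0009). Glucose-6-phosphatase (G6pc) was at 17.5 to 141.6 CPM against 223.6 to 340.9 CPM (log2 fold change -2.21, adjusted p = 0.0361), and its call was lost in 5 of 7 fits without 1 library. Slc37a4, which brings glucose-6-phosphate to that enzyme, was at 85.5 to 100.8 CPM against 158.0 to 225.5 CPM (log2 fold change -1.0, adjusted p = 0.0067). Trpm5, a channel of tuft and taste cells, was higher (log2 fold change 2.60, adjusted p = 0.0024). The carbohydrate response factor Mlxipl (0.13) and its usual target Txnip (0.02) did not pass.

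Of 8 tested further sugar transporters in the jejunum, Slc2a1 (GLUT1) was higher at 12.2 to 24.7 CPM against 3.7 to 5.1 CPM (log2 fold change 1.81, limma adjusted p = 0.0028), and Slc5a4a was the 1 that was lower. Of 15 reported brush border genes in the jejunum 1 was lower (the peptidase Mep1a, log2 fold change -1.69) and 0 were higher. Of 9 reported transcription factors 1 was lower (Hnf4g, log2 fold change -0.78, adjusted p = 0.0454). Its call was lost in 6 of 7 fits without 1 library. Cdx2 and Gata4, whose motif letters were searched above, did not pass in the jejunum, with log2 fold changes of 0.25 for Cdx2 and 0.38 for Gata4. The median log2 fold changes of the sugar transporter, breakdown, output, brush border and factor lists were -0.49, 0.28, -0.38, -0.17 and -0.08, against -0.04 for all genes.

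Of 9 genes of glucose output and sensing in the ileum, Fbp1 was higher (log2 fold change 1.66, limma adjusted p = 0.0262) and Pck1 lower (34.8 to 165.7 against 127.0 to 537.8 CPM, log2 fold change -2.13, adjusted p = 0.0174). Fbp1 lost its call without RYGB replicate 1 or 2 or sham replicate 2 or 3. Of 14 reported brush border genes the peptide transporter Slc15a1 was lower (log2 fold change -0.85, adjusted p = 0.0212). It lost the call without sham replicate 3 and with scaling by median ratio (-0.74, adjusted p = 0.0743). None of 8 other sugar transporters and none of 8 reported factors was called in the ileum by limma. In the duodenum 0 of 8, 0 of 11, 0 of 8, 0 of 15 and 0 of 9 reported genes of these 5 lists were called. The 2 ileal genes of glucose output overlapped between the groups.

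**Figure D5:**
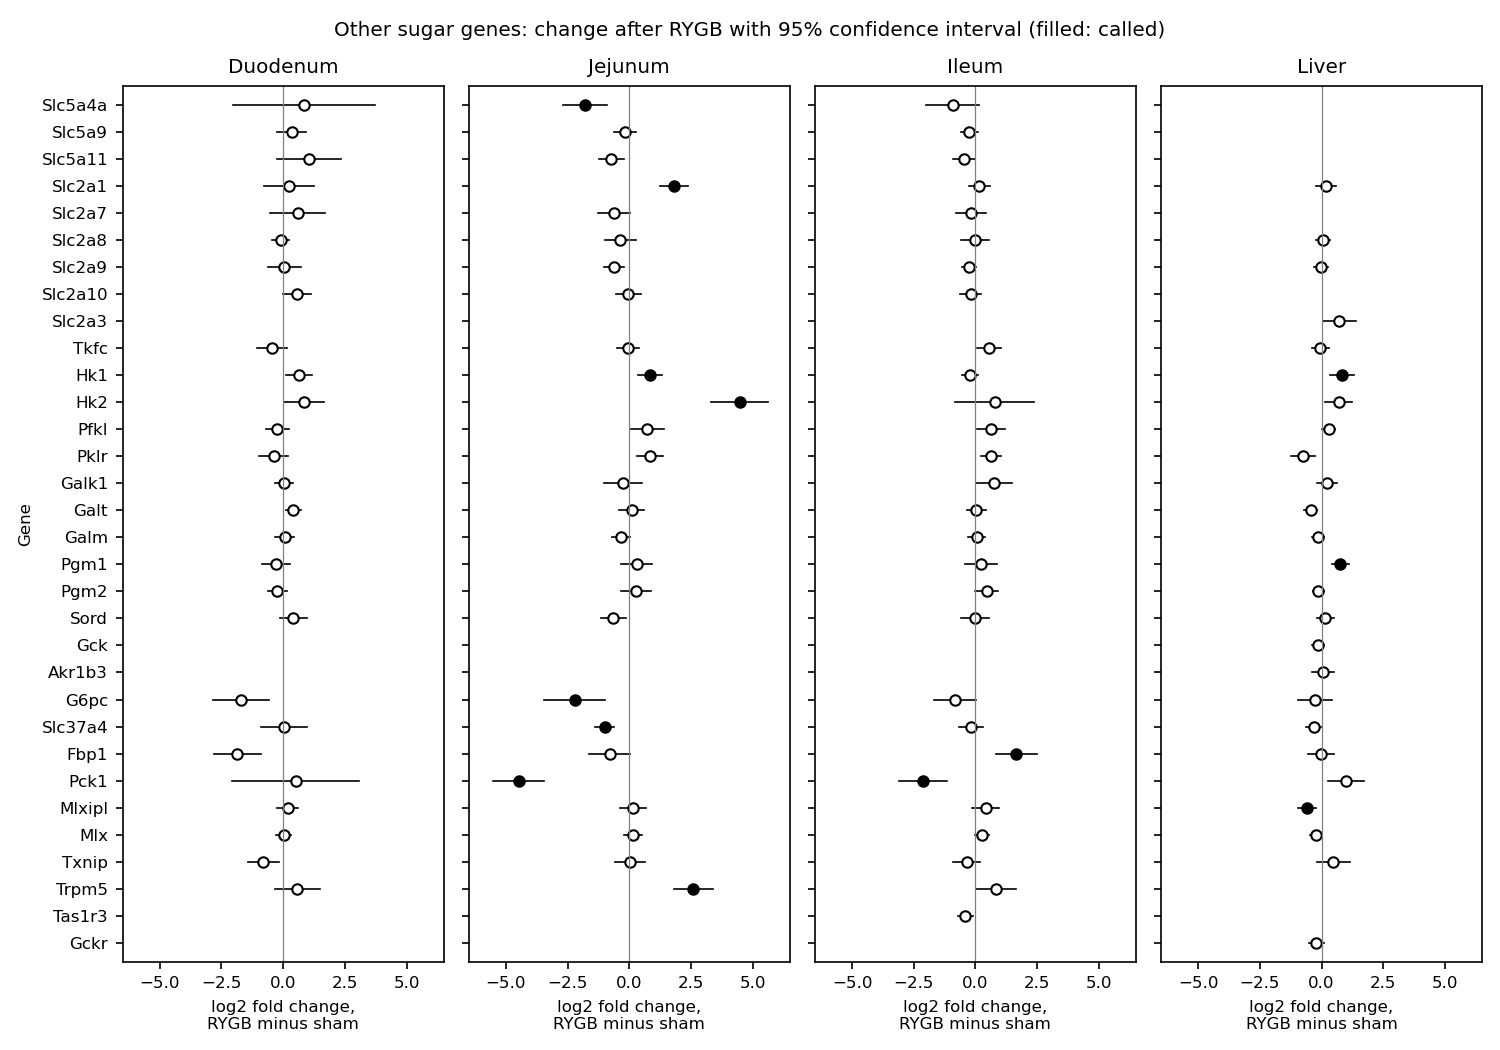
Change of further sugar genes after RYGB. The horizontal axis is the log2 fold change (RYGB minus sham) on log2(CPM + 1) in 4 tissues, bars are 95% confidence intervals, and filled points were called. In the jejunum Hk2 stands at 4.47 and Pck1 at -4.48, while Tkfc stands near 0.

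In the liver 1 of the 6 listed genes was called. Treh was higher, at 7.0, 17.0, 7.0 and 8.3 CPM after RYGB and 3.8, 4.7, 5.5 and 2.2 CPM after sham surgery. The groups did not overlap, and RYGB replicate 2 stood above the others. Treh had a log2 fold change of 1.06 (SE 0.29, limma adjusted p = 0.0452) on the scale with 1 CPM added. The call was lost when any library other than RYGB replicate 1 or sham replicate 3 was left out, with adjusted p-values up to 0.104. Without RYGB replicate 2 the log2 fold change was 0.78. In the liver 7.08% of 11807 genes were called, 5.79% higher and 1.29% lower, and 16.4% had groups without overlap.

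Khk of the liver read 449.0, 263.9, 267.7 and 360.0 CPM after RYGB and 480.3, 608.8, 598.5 and 427.2 CPM after sham surgery. Its highest RYGB library overlapped the lowest sham library. The log2 fold change was -0.68 (SE 0.19) with a limma adjusted p of 0.0514, and it was 0.035 with lane as a covariate and 0.0172 without RYGB replicate 1. Slc2a2, the main glucose transporter of hepatocytes, was at 255.6 to 393.0 against 256.8 to 304.6 CPM (log2 fold change 0.19, adjusted p = 0.427). Mgam was at 74.3 to 115.7 against 101.3 to 127.8 CPM (log2 fold change -0.35, adjusted p = 0.138). Slc2a5 stood at 5.1 to 11.9 against 7.4 to 11.0 CPM (log2 fold change -0.15) and Slc5a1 at 1.3 to 4.7 against 1.1 to 1.5 CPM (0.56), both low.

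Among the liver genes around Khk, Tkfc (log2 fold change -0.05) did not pass, and Mlxipl was lower at 142.2 to 223.3 against 262.3 to 371.3 CPM (log2 fold change -0.60, limma adjusted p = 0.0485), a call lost in 7 of 8 fits without 1 library. Mlxipl was the only call among 8 tested genes of glucose output and sensing in the liver. Of 13 tested breakdown genes 2 were higher and 0 lower, where 5.79% and 1.29% of all liver genes were. These were Hk1 (0.82, 6.6 to 13.5 against 3.2 to 5.7 CPM) and Pgm1 (0.77, 10.7 to 14.7 against 5.7 to 9.1 CPM), both low. Hk1 lost its call in 5 of 8 such fits and with scaling by median ratio (0.69, adjusted p = 0.055), and Pgm1 in 1 of 8 fits. The brush border list gave 1 call of 5 reported genes, Ezr (0.82, 7.6 to 14.3 against 4.3 to 6.4 CPM), lost in 3 of 8. Txnip (0.48) and Gata4 (-0.02) were not called, and none of 4 other sugar transporters and none of 4 reported factors was called by limma.

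Other markers moved in the liver with Treh. Of 5 listed immune markers 3 were higher (Ptprc, Itgax and Lyz2), with a summed level of 500.1 to 1225 CPM after RYGB and 217.5 to 334.7 CPM after sham surgery. Of 8 stromal markers 3 were higher (Col1a1, Pdgfra and Tagln), with sums of 369.7 to 717.7 against 256.6 to 356.3 CPM. The 6 hepatocyte markers were not called, and Alb stood at 63139 to 98977 CPM over all 8 libraries. The part of these cells in the liver values was not tested. The median log2 fold change over all liver genes was 0.13, and with scaling by median ratio, which removes this shift, Treh was at 0.93 with an adjusted p of 0.0772.

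Khk was low in WAT and muscle, where the 5 adipocyte and the 5 muscle markers were all listed in their own tissue. It read 10.9 to 14.0 CPM after RYGB and 10.4 to 13.1 CPM after sham surgery in WAT (log2 fold change 0.09, turning to -0.012 with scaling by median ratio). In muscle it read 11.0 to 13.0 and 9.9 to 13.8 CPM (log2 fold change -0.02). In WAT 24.1% of 13379 genes were called, and in muscle limma called 0% of 11966 genes, with 1746 at an unadjusted p under 0.05.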

How the data were processed

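Messenger RNA libraries from a stranded kit were sequenced from 6 tissues of RYGB and sham mice killed 9 days after surgery. The authors deposited 1 table per tissue with CPM values, the reads of each gene scaled to a fixed library total and rounded to 0.1. Per the labels, the submitters' processing notes name HTSeq and GRCm38, and the aligner and annotation are not given in the sources used here. The unit was settled from the values, since each column summed to a similar total once repeated lines (298 in duodenum, 359 in jejunum, 326 in ileum, 1 in liver, 379 in WAT and 408 in muscle) were counted once. For the liver, 12 incomplete lines were left out. Depth is unknown, so no counting interval was given, and rounding limits genes under about 1 CPM.

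Groups followed the labels. Nothing says which libraries of different tissues share a mouse, and p-values measure the spread between these libraries. RYGB was compared with sham in each tissue by limma 3.58.1 (R 4.3.3, empirical Bayes with a trend) on log2(CPM + 1) for genes whose mean reached 1 CPM, with Benjamini-Hochberg adjustment over all genes of the tissue. A fold change on this scale understates the change of low genes. A gene was called at an adjusted p under 0.05 and a fold change of at least 1.5. The method was tested on simulated data. Python 3.11.15 with numpy 2.4.6 and pandas 2.3.3 served for the tables. Exon lengths were from GENCODE M21 (GRCm38).

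The genes and lists were chosen with earlier results of these data known. The genes named are the 9 genes in every tissue, called genes of 5 lists (other sugar transporters, breakdown after uptake, glucose output and sensing, brush border, transcription factors) in the intestine and liver, 6 genes of these lists whatever their result (Tkfc, Mlxipl, Txnip, Slc5a4a, Cdx2 and Gata4), and the 3 genes with the highest r for each of the 9 (mean of at least 10 CPM in all 3 segments). Some genes that this rule names, and a motif, are not reported here, and list counts leave them out. Marker lists covered enterocytes, segments, crypt, Paneth, goblet, immune, stromal, hepatocyte, adipocyte, muscle, pancreatic and gastric cells. Same-numbered libraries did not deviate together in all pairs of any tissue (23 pairs, r from -0.281 to 0.389), so numbers were not used as pairs. Alternatives were a pseudocount of 0.1, no filter, a minimum of 10 CPM, scaling by median ratio, a replicate block, lane as a covariate, the adjusted p alone, and leaving out each library.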

Additional observations from a re-analysis of the deposited data

Results flagged for a closer look

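Slc2a2 in the duodenum was flagged for 1 sham library. Sham replicate 1 read 327.5 CPM and the nearest other sham library 799.2 CPM, and on log2(CPM + 1) the gap took 0.84 of the range of the 4 sham libraries, above the critical value of Dixon's test. Of 52 groups of 4 or 5 libraries tested for the 9 genes 1 was flagged, and 2.6 would be flagged by chance at 1 in 20. The same library held the highest Slc40a1 level of the 7 duodenal libraries (2468 CPM). Without it the log2 fold change of Slc2a2 was -0.33.

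Treh was flagged because its RYGB libraries were all higher than its sham libraries in the liver and all lower in the jejunum. The log2 fold changes were 1.06 and -0.89, a difference of 1.95 that was not tested, since the tables were normalised separately. The levels differed as well, with 2.2 to 17.0 CPM in the liver and 591.6 to 1448 CPM in the jejunum.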

How the results depend on the processing

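Over the 35 comparisons of the 9 genes (a gene in a tissue) and all alternatives, 469 of 504 values kept their direction and side of the threshold, 13 lost the call, 4 gained one and 18 changed sign, the last all for changes that were not called. The count of called genes among the 9 in the duodenum, WAT and muscle stayed at 0 under each alternative, and that of the jejunum, 3, was 2 with lane as a covariate (the lane separates RYGB replicate 2 alone), 4 with a minimum of 10 CPM, and 2 to 3 with a library left out. In the ileum the count of 1 was 0 with scaling by median ratio and 0 with the replicate block, and 0 to 2 with a library left out (0 without RYGB replicate 2 or sham replicate 5, 2 without sham replicate 4). In the liver the count of 1 was 0 with a minimum of 10 CPM, which removes Treh, 0 with scaling by median ratio, 2 with lane as a covariate, and 0 to 2 with a library left out (2 without RYGB replicate 1). The causes of these shifts were otherwise not tested.

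Sign changes under scaling by median ratio were Slc2a2 (-0.10), Treh (-0.065) and Mgam (-0.022) in the duodenum, Khk (0.0066) and Tkfc (0.020) in the jejunum, Cdx2 (0.0042) and Gata4 (0.027) in the ileum and Khk (-0.012) in WAT. With lane as a covariate Txnip (-0.10) of the jejunum changed sign. With the replicate block, where the numbers are shared by name only, Khk (0.088) and Txnip (-0.023) of the jejunum changed sign, Lct of the ileum had an adjusted p of 0.054, Hk1 of the jejunum one of 0.157 and Pck1 of the ileum one of 0.0558. The block changed no other call of a named gene. With a library left out, sign changes came within these ranges of log2 fold change. In the duodenum they were Slc2a2 -0.33 to 0.18, Treh -0.10 to 0.20, Mgam -0.046 to 0.28, Slc5a4b -0.69 to 1.07 and Slc5a4a -0.50 to 1.35. In the jejunum they were Khk -0.18 to 0.088, Tkfc -0.15 to 0.063, Mlxipl -0.18 to 0.32 and Txnip -0.19 to 0.19. In the ileum they were Cdx2 -0.22 to 0.094 and Gata4 -0.20 to 0.0015, in the liver Slc2a5 -0.30 to 0.058, Tkfc -0.16 to 0.029 and Gata4 -0.13 to 0.052, and in muscle Khk -0.11 to 0.039.

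With a library left out the genes called over the whole table numbered 0 to 757 in the duodenum (1 with all libraries, 268 with the replicate block, 757 without sham replicate 4), 462 to 1015 in the jejunum (1058), 312 to 766 in the ileum (650), 329 to 1204 in the liver (836) and 0 to 210 in muscle (0, or 184 with the replicate block). A minimum of 10 CPM gave 664, 333 and 458 in the jejunum, ileum and liver, lane as a covariate gave 469 in the jejunum, and the adjusted p alone gave 4980 in WAT (3231). Depth is unknown, so low genes such as liver Slc5a1 cannot be given an interval.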
